A study of Mus musculus with 16 samples.

Results

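The choroid plexus genes described here are 10 genes (Ttr, Otx2, Clic6, Kcne2, Kcnj13, Steap1, Folr1, Aqp1, Sostdc1 and Kl) that mark the epithelium of the choroid plexus, read on arrays of mouse hippocampus. All probe sets that the platform annotation assigns to these symbols were taken, 17 of the 45037 probe sets that are not array controls, and 16 of the 17 passed the filter on low values, as did 27044 probe sets of 12732 genes in all. The probe set that did not pass was 1 of 2 for Kl, with 2.0 to 39.4 intensity units over the 16 arrays. Each gene is described by its probe set of highest mean, and the genes were chosen by name, not by their values.

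Hippocampal RNA of C57BL/6J mice was measured on 16 Affymetrix Mouse Genome 430 2.0 arrays, each with 1 pool of 3 to 4 mice of 1 age, sex and genotype. VP16-CREB is the transcription factor CREB joined to a viral activation domain, so that it is always active, and A-CREB is a dominant negative protein that keeps CREB off DNA. The 3 week cohort held 3 VP16-CREB pools (genotype tetO-VP16-CREB) and 3 pools of littermate controls labelled WT, all raised with doxycycline (dox), which was removed 3 weeks before sampling at 6 weeks of age. The A-CREB cohort held 3 A-CREB pools (genotype TetO-A-CREB-95) and 3 pools of littermate controls, 6 weeks old and raised without dox. The 1 week cohort held 2 VP16-CREB pools and 2 pools of littermate controls, 3 weeks old and 1 week off dox. The promoter that drives the transgenes is not given in the sources used here, and early A-CREB arrays were not analysed here.

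The choroid plexus lies in the brain ventricles, against the hippocampal fimbria, and its epithelium secretes cerebrospinal fluid. Its cells carry potassium channels, chloride carriers and water channels for that secretion, import folate and export transthyretin, the carrier of thyroxine and retinol, to the fluid. The epithelium is no part of the hippocampus. In RNA of whole tissue fewer such cells and less RNA per cell cannot be told apart.

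The levels of 9 of the 10 genes differed by cohort and by array, with no detectable difference by genotype. On the 10 arrays of the A-CREB and 1 week cohorts the summed intensity of the 9 genes other than Ttr was 4201 to 12843, and on the 6 arrays of the 3 week cohort it was 832 to 2762, with no overlap. Of all probe sets 3.56% had each array of the 3 week cohort below the other 10. Otx2 is among the 9 genes, and the filter had built a difference from the 3 week cohort into its passing. No gene passed the test between transgenic pools and their littermates in any cohort. Inside the groups the 9 genes rose and fell together from pool to pool, while Ttr, by far the brightest, followed them in the 3 week cohort and ran against them in the A-CREB cohort.

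Kcne2 and Kcnj13 encode parts of the potassium channels of this epithelium, and their promoters are shown because the core of the CREB binding site lies in both while neither gene passed a transgene test. The sequences are the 250 bases before the RefSeq start site (build GRCm38.p6), 5′ to 3′ on the strand of the gene, and capitals mark TGACG or its reverse complement CGTCA. Kcne2 is read from chr16:92292139-92292388 on the plus strand and Kcnj13 from chr1:87394730-87394979 on the minus strand.
Kcne2: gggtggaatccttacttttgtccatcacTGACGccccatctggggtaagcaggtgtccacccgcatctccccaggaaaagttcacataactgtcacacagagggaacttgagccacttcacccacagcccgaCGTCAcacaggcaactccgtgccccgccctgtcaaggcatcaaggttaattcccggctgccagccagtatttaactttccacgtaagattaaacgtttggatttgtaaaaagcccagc
Kcnj13: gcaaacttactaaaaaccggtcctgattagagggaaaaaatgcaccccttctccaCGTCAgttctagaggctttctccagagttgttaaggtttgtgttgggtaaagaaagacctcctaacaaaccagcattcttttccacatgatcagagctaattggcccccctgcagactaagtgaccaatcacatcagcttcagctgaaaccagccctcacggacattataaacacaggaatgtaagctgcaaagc
Promoters of 300 bases (250 before and 50 after the start) were at hand for 6 of the genes, with 10 start sites: Otx2 with 4, Kcne2 with 2, and Kcnj13, Steap1, Aqp1 and Kl with 1 each. The core TGACG, on either strand, was found at 3 of the 10 start sites, 1 each of Kcne2, Kcnj13 and Otx2, and 20.8% of all 32851 promoters of that length hold it. In Kcne2 its matches begin 222 and 118 bases before the start, and in Kcnj13 195 bases before it. The full palindrome TGACGTCA, which contains the core on both strands, was in none of the 10, against 1.8% of all promoters. TAATCC, a site of OTX factors, was found on either strand at 1 Otx2 start site, 211 bases before it, and 7.1% of all promoters hold it.

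Transthyretin is the main secreted protein of the epithelium, and Ttr (chromosome 18, 20664209 to 20674326) was among the brightest probe sets of the array. Its intensity was 6438, 16841 and 25488 in the VP16-CREB pools at 3 weeks, against 14496, 35917 and 28096 in their controls. It was 27532, 24782 and 37733 in the A-CREB pools, against 40780, 24103 and 30859 in their controls. In the 1 week cohort it was 38993 and 32571 in VP16-CREB pools and 32999 and 26472 in controls. In this probe set the groups overlap in all 3 cohorts, and the lowest values are replicate 1 of both groups of the 3 week cohort. In a dimmer Ttr probe set the 1 week VP16-CREB pools (32223 and 32495) lay above their controls (29706 and 24194), a difference that was not called. From 0 to 3 probe sets were brighter than Ttr on the 10 arrays of the A-CREB and 1 week cohorts, and from 3 to 996 on the 6 arrays of the 3 week cohort. Whether its signal is compressed so near the top of the range was not tested, and its differences and spread below are those of the deposited values. The other 3 Ttr probe sets showed the same low pair, with 2671 to 4308 in VP16-CREB replicate 1 and 6270 to 11489 in control replicate 1. Their medians were 11404 to 16954 in the 3 week cohort. In the A-CREB cohort they were 24666 to 26523, and in the 1 week cohort 28034 to 30964.

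Among the ion and water transport genes, Clic6 encodes an intracellular chloride channel protein and lies on chromosome 16 (92498147 to 92541241), 200013 bases beyond Kcne2. Clic6 had 39.2, 153 and 235 intensity units in the VP16-CREB pools at 3 weeks, against 85.3, 262 and 425 in their controls. It had 3508, 1538 and 1129 in the A-CREB pools, against 989, 2171 and 1973 in their controls. In the 1 week cohort Clic6 had 2714 and 1981 in VP16-CREB pools and 3300 and 2604 in controls. All 6 arrays of the 3 week cohort lie below the other 10, as they do for 3.56% of all probe sets, and within each cohort the groups overlap.

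Kcnj13 (chromosome 1, 87384577 to 87394729) encodes the inward rectifier channel Kir7.1 of the apical membrane. Its intensity was 164, 192 and 372 in the VP16-CREB pools at 3 weeks, against 191, 437 and 579 in their controls. It was 2063, 1479 and 756 in A-CREB pools, against 712, 2377 and 1542 in their controls. In the 1 week cohort it was 2103 and 1910 in VP16-CREB pools, below the 2571 and 2367 of the controls. The order of the pools within the 3 week and A-CREB groups is that of Clic6.

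Kcne2 (chromosome 16, 92292389 to 92298133) encodes a small potassium channel subunit. It had 6.31, 7.78 and 163 intensity units in the VP16-CREB pools at 3 weeks, against 39.9, 141 and 171 in their controls. The values of VP16-CREB replicates 1 and 2 lie under the pseudocount of 10 that was added before taking logs, so the size of the difference depends on it. In the A-CREB cohort Kcne2 had 1110, 528 and 359 in A-CREB pools and 392, 864 and 420 in controls, and in the 1 week cohort 791 and 586 in VP16-CREB pools and 932 and 889 in controls. Aqp1 (chromosome 6, 55336299 to 55348555), the water channel aquaporin 1, ranged from 22.4 to 121 in the 3 week cohort, from 105 to 521 in the A-CREB cohort and from 262 to 404 in the 1 week cohort. Its lowest A-CREB cohort array lay under the highest of the 3 week cohort, where Kcne2 did not overlap.

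Folr1 (chromosome 7, 101858331 to 101870788) encodes the folate receptor alpha that carries folate across the epithelium. Its intensity was 99.7, 136 and 362 in the VP16-CREB pools at 3 weeks, against 201, 212 and 433 in their controls. It was 1691, 836 and 533 in the A-CREB pools, against 542, 1297 and 1215 in their controls. In the 1 week cohort it was 1257 and 1212 in VP16-CREB pools and 2144 and 1271 in controls. The higher 1 week VP16-CREB pool lay just under the lower control, and within the other cohorts the groups overlap.

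Otx2 (chromosome 14, 48656781 to 48667644), a homeobox factor needed to form and keep the choroid plexus, was the dimmest gene in the 3 week cohort. It had 7.47, 33.7 and 29.4 intensity units in the VP16-CREB pools there, against 22.6, 80.9 and 8.19 in their controls. All 6 lie below 99.1, the median of all values in the data, so Otx2 passed the filter through the other 10 arrays alone, where it had 170 to 608. A difference from the 3 week cohort was thereby built into its passing, and the same holds for the dimmer of 2 Steap1 probe sets, with 4.31 to 65.3 in the 3 week cohort.

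The remaining genes were the metal reductase family gene Steap1 (chromosome 5, 5736322 to 5749317), Sostdc1 (chromosome 12, 36314169 to 36318452), a secreted antagonist of BMP and WNT signalling, and Kl (chromosome 5, 150952607 to 150993817), the FGF23 co-receptor Klotho. In the 3 week cohort, A-CREB cohort and 1 week cohort, Steap1 spanned 44.4 to 213, 249 to 846 and 470 to 727. Sostdc1 spanned 197 to 372, 408 to 1079 and 582 to 785, and Kl 190 to 440, 566 to 1480 and 794 to 1513. All 3 genes were lower on each of the 6 arrays of the 3 week cohort than on any of the other 10.

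**Figure D1:**
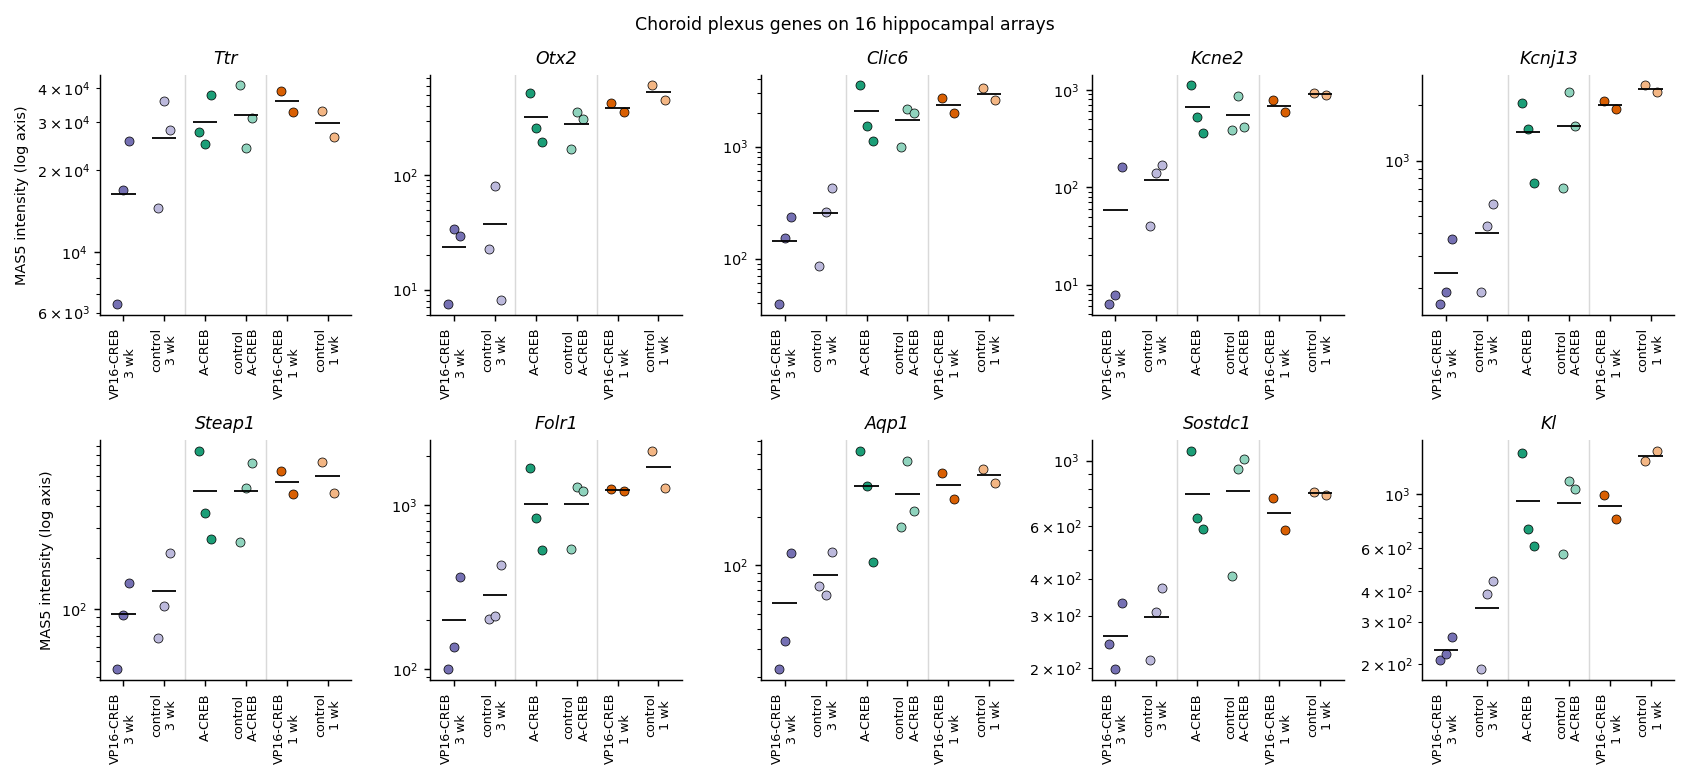
MAS5 intensity (log axis, arbitrary units) of the 10 genes on 16 arrays; each point is 1 pool, bars are group means, and groups run from the 3 week cohort through the A-CREB cohort to the 1 week cohort. The 3 week cohort is low for every gene except Ttr, whose values overlap between cohorts. Transgenic and control points overlap in the 3 week and A-CREB cohorts.

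The comparison of VP16-CREB with control pools at 3 weeks asks what lasting CREB activity changes. No choroid plexus gene was called at an adjusted p under 0.05 (limma, two-sided, Benjamini-Hochberg adjustment over 27044 probe sets), where 3.93% of all probe sets were called. The log2 difference was below 0 for all 10 genes, with a median of -0.63 against -0.01 over all probe sets, from -1.59 for Kcne2 (SE 0.77, adjusted p = 0.397) to -0.21 for Sostdc1 (SE 0.34, adjusted p = 0.906). Ttr differed by -0.80 (95% interval -1.73 to 0.13, adjusted p = 0.481), Clic6 by -0.84, Kcnj13 by -0.66 and Folr1 by -0.60. The 10 genes were read from the same pools, so their shared sign is not 10 separate observations. All 10 intervals include 0, and those of Kcne2 (-3.24 to 0.06) and Clic6 (-2.19 to 0.52) would hold a several-fold fall.

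Single pools decided these sizes. Without VP16-CREB replicate 3, whose 9 genes other than Ttr were all above their group mean, the median was -1.06 and Kcne2 alone was called (log2 -2.70, adjusted p = 0.0213). Without VP16-CREB replicate 1 the median was -0.24 and Otx2 was at 0.13. Microglia markers, whose cells are another type in the sample, moved in the same comparison: 10 of 10 rose in VP16-CREB pools, with summed intensities of 53876 to 64407 against 12260 to 13107 in controls. Trem2, a lipid receptor gene, rose by 2.84 log2 units (SE 0.22, limma adjusted p = 6.27e-06), the complement gene C1qa by 2.50, the lysosomal gene Cd68 by 2.73 and Aif1 by 2.16. Of 10 hippocampal neuron markers 4 fell, the granule cell genes Prox1 (-1.20), C1ql2 (-1.78), Dsp (-1.77) and Lct (-1.56), and their list summed to 16303 to 19257 in VP16-CREB pools, against 23135 to 25979 in controls. Slc13a3 (0.75) was the 1 of 12 leptomeningeal markers that rose and Ntng1 (-0.76) the 1 of 9 thalamus markers that fell, while no ependymal, endothelial, blood or striatum marker was called. The part of these lists in the result was not tested.

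At 1 week off dox no choroid plexus gene was called, where 0.237% of all probe sets were. The median log2 difference was -0.32, against 0.02 over all probe sets, and 9 of 10 genes were below 0. Kl had 992 and 794 intensity units in VP16-CREB pools, against 1372 and 1513 in controls, a log2 difference of -0.69 (SE 0.44, adjusted p = 1). Ttr differed by 0.27 in the other direction. For 6 genes (Otx2, Kcne2, Kcnj13, Folr1, Sostdc1 and Kl) both VP16-CREB pools lay below both controls, an order that 12.9% of all probe sets showed. Of the marker lists, the microglia genes Cd68 (1.84) and Ly86 (1.92) were the ones called, both higher in VP16-CREB pools, and hippocampal neuron markers summed to 18707 to 19134 in VP16-CREB pools against 23905 to 25500 in controls. The part of these lists was not tested. The differences of Steap1 (-0.10) and Aqp1 (-0.20) changed sign when 1 pool was left out.

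Between A-CREB pools and their controls the median log2 difference of the 10 genes was -0.004, and 0.003 over all probe sets, with 5 genes above and 5 below 0 and a range from -0.08 to 0.19. No gene was called (limma, adjusted p = 1 for all 10), and 0% of all probe sets were, while 1171 had an unadjusted p under 0.05, none of them of these genes. The median ran from -0.34 without A-CREB replicate 1 to 0.33 without A-CREB replicate 3, so either pool moved it further than the groups differed.

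The 3 week VP16-CREB effect minus the 1 week effect was called for no choroid plexus gene, where 0.0037% of all probe sets were called, with a median of -0.34 and adjusted p = 1 for all 10. That median ran from -0.70 without VP16-CREB replicate 3 of the 3 week cohort to 0.07 without replicate 1 of the same group. Likewise the 3 week VP16-CREB effect minus the A-CREB effect was called for no gene, where 0.887% were, with a median of -0.57 and adjusted p from 0.746 to 0.964. That median ran from -1.002 without VP16-CREB replicate 3 to -0.14 without A-CREB control replicate 1. Both tests share the 3 week pools. In the second, 8 of 10 microglia markers (among them C1qa at 2.12, Trem2 at 2.25, Aif1 at 1.91 and Cd68 at 2.32) and Prox1 (-1.05) were called.

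The cohorts themselves differed. In the controls of the 3 week cohort 9 of the 10 genes, all but Ttr, were lower than in the controls of the 1 week cohort, where 4.25% of all probe sets were called lower. Otx2, with 37.2 ± 38.5 intensity units (SD, n = 3) against 530 ± 109 (n = 2), is 1 of the 9, but the filter had built a difference from the 3 week cohort into its passing, which leaves 8 of the other 9 genes. Clic6 (257 ± 170, SD, n = 3, against 2952 ± 492, n = 2) fell by 3.71 on the log2 scale (SE 0.70, limma adjusted p = 0.00226), Kcne2 by 3.05 and Kcnj13 by 2.72. Sostdc1 had the smallest called difference, -1.39, and Aqp1 was the closest to the threshold (-1.99, adjusted p = 0.0442). Ttr averaged 26170 ± 10840 in the 3 week controls and 29736 ± 4615 in the 1 week controls, a log2 difference of -0.27 (SE 0.48, limma adjusted p = 0.758). Its dimmer probe sets were at -0.30, -0.65 and -0.82, none of them called. The sign of the -0.27 turned without control replicate 1 of the 3 week cohort (0.10). The count of 9 was 5 without that replicate and 4 without control replicate 1 of the 1 week cohort.

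Against the controls of the A-CREB cohort, which were of the same age of 6 weeks, 7 genes were lower in the 3 week controls, where 3.63% of all probe sets were called lower. Otx2 (37.2 ± 38.5 against 279 ± 96.6, SD, n = 3 each) is again 1 of them with the same built-in difference, which leaves 6 of the other 9. Clic6 was at -2.86 log2 (limma adjusted p = 0.0054). Kcnj13, Steap1, Folr1, Sostdc1 and Kl were at -1.89, -1.88, -1.80, -1.30 and -1.43. Kcne2 (-2.26, adjusted p = 0.0593) and Aqp1 (-1.51, adjusted p = 0.0866) did not pass. All 9 genes other than Ttr, with Otx2 and its built-in difference among them, were lower in each 3 week control than in any A-CREB control. The same order was found for 12.8% of all probe sets. Ttr was at -0.35 (limma adjusted p = 0.657), with its dimmer probe sets at -0.35, -0.49 and -0.81 and none of them called. Its brightest probe set was at 0.03 without control replicate 1 of the 3 week cohort. The count of 7 was 2 without that replicate, 2 without A-CREB control replicate 2 and 4 without A-CREB control replicate 3.

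No gene was called between the controls of the A-CREB cohort and those of the 1 week cohort, where 0% of all probe sets were called lower and 1504 had an unadjusted p under 0.05 in either direction. The median log2 difference was -0.75, and -0.01 over all probe sets. The age, the dox schedule and the cohort cannot be told apart in the 1 week comparisons, nor the dox schedule and the cohort between the 2 groups of 6 weeks. The arrays of the 3 week cohort also stood apart as a whole: their median intensity was 119 to 129 against 75.0 to 93.2 on the other 10, although all had the same trimmed mean of 500. With arrays centred on their median the 10 genes were further down (medians of -2.97 and -2.37 against -2.43 and -1.84 in the control comparisons against the 1 week and A-CREB cohorts), as were all probe sets (-0.48 and -0.48 against 0.07 and 0.05). Centring raised the lower calls to 81.0% and 81.9% of all calls, and quantile normalization to 45.0% and 44.0%, from 23.6% and 20.7%.

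**Figure D2:**
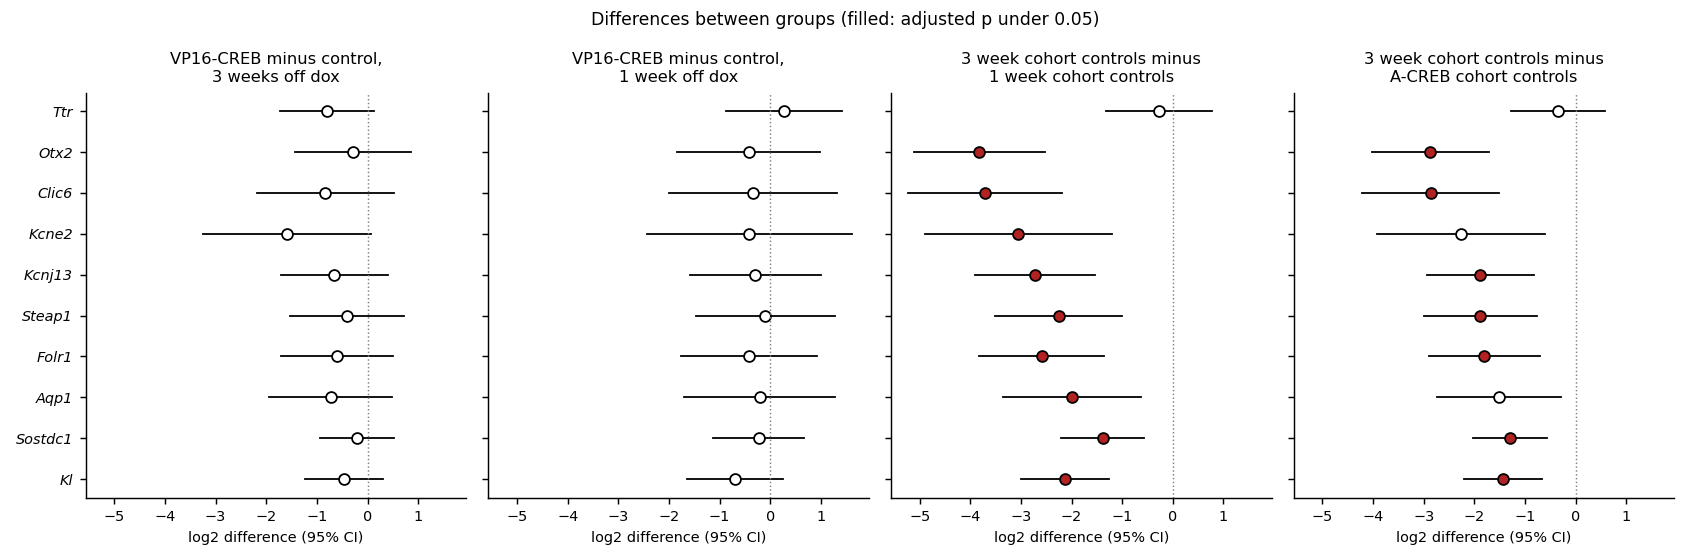
Log2 difference of each gene with its 95% interval (limma), transgenic minus control in the 2 VP16-CREB cohorts and 3 week minus other controls; filled points passed an adjusted p under 0.05. All intervals of the transgene comparisons include 0, and 9 and 7 genes are filled in the control comparisons, never Ttr.

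Of the variance of each gene over the 16 arrays, 69.0% to 88.0% lay between cohorts for the 9 genes other than Ttr, 0.69% to 6.89% between genotypes within cohorts, and 11.3% to 27.3% among pools of 1 group. The ends of 88.0%, 0.69% and 11.3% are those of Otx2, whose passing of the filter had a difference from the 3 week cohort built in. Without Otx2 these ends were 84.69% (Clic6), 1.12% (Steap1) and 13.25% (Clic6). Ttr had 31.7% between cohorts, 15.5% between genotypes and 52.8% among pools. Its dimmer probe sets had 32.97% to 47.96% between cohorts. The SD among pools of a group was 0.46 to 1.08 log2 units for the 10 genes, against a median of 0.27 over all probe sets, which put them at percentiles 82.4 (Sostdc1) to 99.8 (Kcne2) of all probe sets tested. That spread came from the 3 week and A-CREB cohorts, with median percentiles of 98.2 and 92.6. In the 1 week cohort, with groups of 2, the percentiles were 10.9 to 73.45 with a median of 46.1. In the A-CREB cohort the brightest array exceeded the dimmest by 2.61 times (Kl) to 4.97 times (Aqp1) for the 9 genes and by 1.69 times for Ttr.

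To ask whether the genes vary together from array to array apart from any group difference, each log2 value was taken as its deviation from the mean of its own group. In 5 pools all 9 genes other than Ttr were below their group mean: replicate 1 of the VP16-CREB and of the control pools at 3 weeks, replicate 2 of VP16-CREB at 1 week, A-CREB replicate 3 and A-CREB control replicate 1. In 4 pools all 9 were above it: VP16-CREB replicate 3 at 3 weeks, VP16-CREB replicate 1 at 1 week, A-CREB replicate 1 and A-CREB control replicate 2. Each group's own mean was removed, so pools on both sides, transgenic and control, follow by construction and say nothing of genotype. In the groups of 2 the deviations of the pair mirror each other by construction.

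Over the 36 pairs of the 9 genes the Pearson correlation of deviations was 0.35 to 0.93 with a median of 0.80, and all 36 were positive. Within the 6 arrays of the A-CREB cohort the median was 0.91 (0.66 to 1.00), and within the 6 of the 3 week cohort 0.78 (-0.10 to 0.97, 34 of 36 positive). Otx2 was the loosest gene, at 0.45 against the mean of the other 8, and 0.12 within the 3 week cohort, where it had 7.47 to 80.9 intensity units. Kcnj13 was the tightest at 0.93. These 9 genes share arrays, RNA pools and scaling.

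Ttr was taken as the anchor of the 9 other genes, and each relation was tested by permuting pools within groups (exact test, two-sided, 5184 arrangements). None of the 9 relations passed (exact adjusted p of 0.699 to 0.780 over 9 tests for r and 0.87 for rho). The correlations were all positive, 0.09 (Sostdc1) to 0.60 (Clic6) with a median of 0.28, and without the 2 arrays farthest in Ttr, replicate 1 of both groups of the 3 week cohort, they ran from -0.17 to 0.30. The cohorts pulled apart. In the 3 week cohort Ttr had r of 0.58 to 0.93 with the 9 genes, and in the A-CREB cohort -0.93 to -0.61, over 6 arrays each, so that a pooled r does not describe either. In the A-CREB cohort Ttr was highest in control replicate 1 (40780) and A-CREB replicate 3 (37733), the same pools where the 9 genes were lowest. In a further Ttr probe set control replicate 1 (24937) lay under control replicate 3 (25778) and A-CREB replicate 1 (25330). The remaining Ttr probe sets had the same pools highest. Control replicate 1 and A-CREB replicate 3 also had actin 3' to 5' ratios, a measure of RNA integrity, of 1.98 and 2.48, against 1.37 to 1.65 on the other 4 arrays of the cohort. Over the 16 arrays the ratio had r = -0.53 with the mean of the 9 genes within groups, and its part in the result was not tested. Xist was 63.4 and 34.5 in replicate 1 of A-CREB and of its controls and at least 3611 on every other array, and these 2 pools were on opposite sides for the 9 genes.

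Beside Ttr, Kcnj13 was taken as an anchor after the values were seen, as the gene with the highest mean log2 intensity after Ttr. It was also the tightest of the 9, so its correlations are given as a description, with no test. They were 0.81 to 0.89 for 7 of the 8 other genes, with Folr1 at 0.87 (rho = 0.88) and Clic6 at 0.86 (rho = 0.85), and 0.44 for Otx2 (rho = 0.52). Leaving out the 2 arrays farthest from the Kcnj13 median (A-CREB control replicate 1 and 3 week control replicate 1) left r of 0.80 to 0.92 for the 7.

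**Figure D3:**
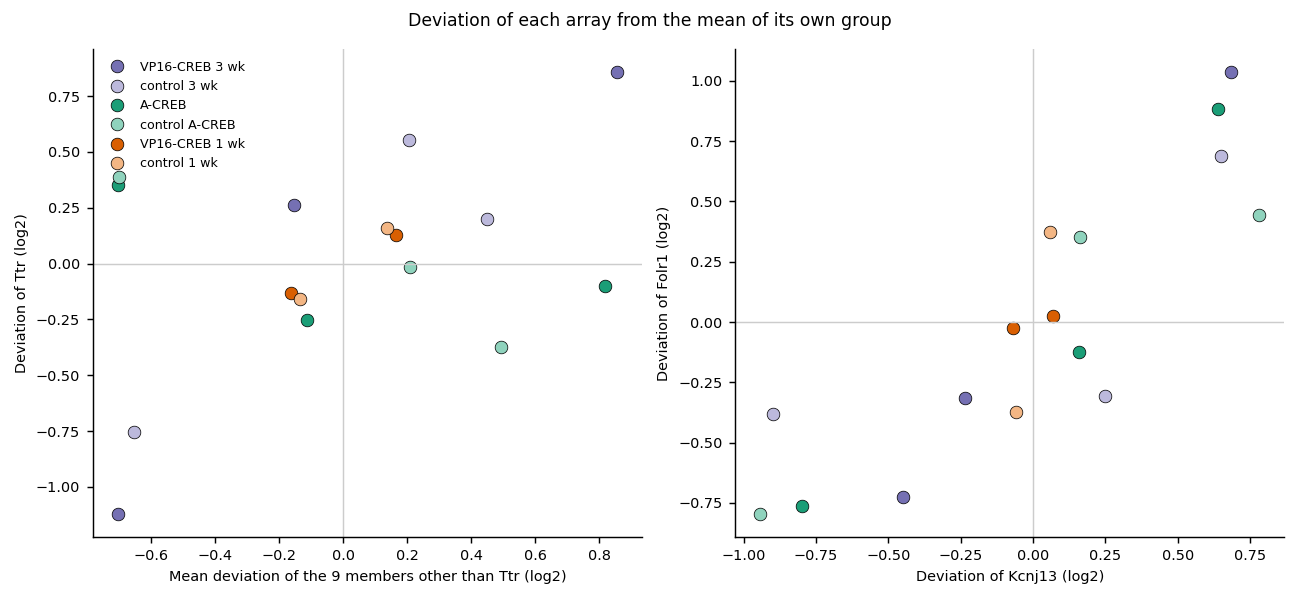
Deviation of each of the 16 arrays from its group mean (log2): left, Ttr against the mean of the 9 other genes; right, Folr1 against Kcnj13. Folr1 follows Kcnj13 in the 3 week and A-CREB cohorts (r = 0.83 and 0.94). Ttr rises with the 9 genes in the 3 week cohort and falls as they rise in the A-CREB cohort.

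Further genes of the choroid plexus, from a list of 26 of which 20 passed the filter, followed the same arrays. The mean of the 20 had r = 0.95 with the mean of the 9 genes within groups (1.00 in the A-CREB cohort and 0.92 in the 3 week cohort), and each of the 20 was positive, from 0.07 to 0.89. Their summed intensity was 4144 to 5436 in VP16-CREB pools and 4226 to 5848 in controls at 3 weeks, 7889 to 15173 in A-CREB pools and 7473 to 13994 in their controls, and 11240 to 12945 in VP16-CREB pools and 12700 to 14581 in controls at 1 week. In the 3 week controls 13 of 20 were lower than in the 1 week controls (median -1.77), against 4.25% of all probe sets. Compared with the A-CREB controls 10 of 20 were lower (median -1.31), against 3.63% of all probe sets. Slc4a5, with a median intensity of 38.8 in the 3 week cohort, and Wfikkn2, with a mean of 68.4 over all arrays, were lower in both. These levels are under the overall median that the filter used. How far the filter built a difference into the calls of the 20 was not tested. Among the 13 were Cab39l, a scaffold of the kinase LKB1 (-1.32 and -1.02), and the growth factor gene Igf2. Igf2 was called against the 1 week controls (-1.30, limma adjusted p = 0.0408) and not against the A-CREB controls (-0.97, adjusted p = 0.0858). Of these 20, 1 was called in a transgene comparison, that of VP16-CREB at 3 weeks, where 3.93% of all probe sets were called. Sulf1, a heparan sulfate endosulfatase gene that other cells express too, rose there by 0.99 in VP16-CREB pools (SE 0.23, limma adjusted p = 0.025).

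Markers of other neighbours of the hippocampus were set beside the 9 genes in the same way. The list mean of 10 ependymal markers, the ciliated cells that line the ventricles, had r = 0.50, that of 12 leptomeningeal fibroblast markers 0.39, of 5 endothelial markers 0.64 and of 2 blood cell genes 0.51. Thalamus markers (9 genes) had 0.55, striatum markers (5 genes) 0.07, microglia markers (10 genes) 0.60 and hippocampal neuron markers (10 genes) -0.34. For single genes the median r was 0.77 in the list of other choroid plexus genes, 0.41 for ependymal, 0.22 for leptomeningeal, 0.41 for endothelial and 0.47 for microglia markers. The brightest ependymal markers were Rarres2 and Tmem212 (mean intensities of 497 and 421), the brightest leptomeningeal ones Dcn and Islr (2639 and 568), and the brightest endothelial ones Cldn5 and Esam (664 and 371). Those of the thalamus were Calb2 and Ntng1 (1036 and 785), those of the striatum Pde10a and Penk (1223 and 557), and those of microglia Csf1r and C1qa (7014 and 3842). Of the 10 ependymal markers 4 were lower in the 3 week controls than in the 1 week and than in the A-CREB controls. Of all probe sets 4.25% and 3.63% were called lower there. Tmem212 was lower by 1.62 and 0.96 log2 units, and none of the 10 markers was called by genotype in any cohort. Their summed intensity was 1748 to 2328 over the 3 week cohort and 2430 to 5037 over the other 10 arrays. Of 12 leptomeningeal markers 3 were lower in both control comparisons, while Dcn, the brightest, was at -0.04 and -0.06. None of 5 striatum markers was called in either, and 1 of 9 thalamus markers was, Plekhg1 (-0.72), against the A-CREB controls. Against the same controls 1 of 2 blood cell genes was lower, Alas2 of haem synthesis (-2.60, adjusted p = 0.00797, beside -1.84 and adjusted p = 0.0789 against the 1 week controls), and 1 of 5 endothelial markers was higher, Esam (0.64, adjusted p = 0.0147). The blood cell genes, Alas2 and Hbb-b2 with mean intensities of 142 and 76.8, summed to 87.4 to 151 in the 3 week controls, against 198 to 387 in the A-CREB controls. The part of these lists in the control comparisons was not tested. The hippocampal markers Camk2a and Neurod6, with mean intensities of 7939 and 4321, were not called in either control comparison, and 1 of the 10, the granule cell factor gene Prox1, was higher in both (0.67 and 0.73).

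**Figure D4:**
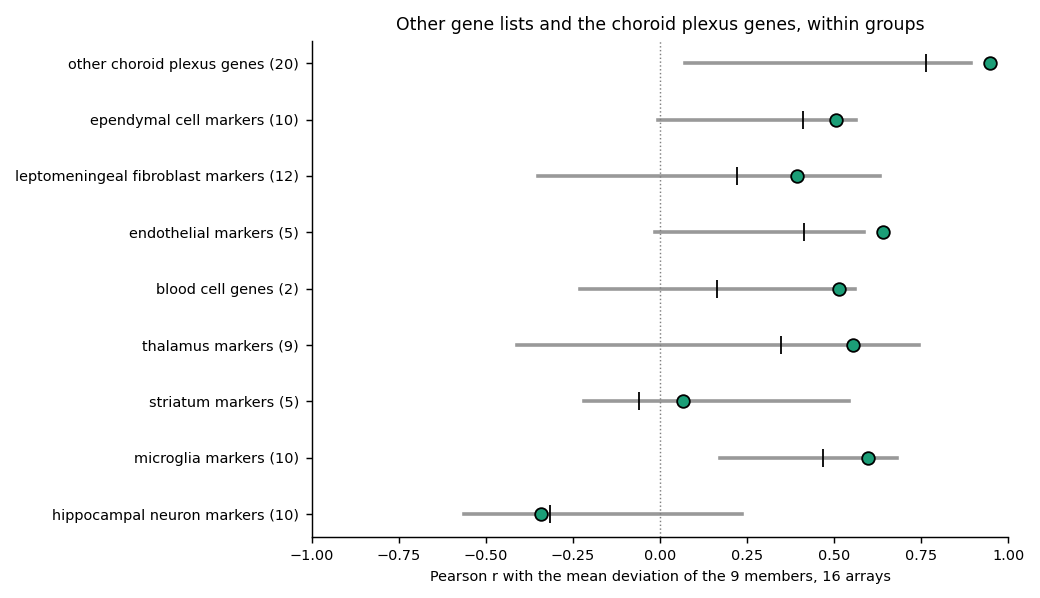
Pearson correlation, over 16 arrays and within groups, of other gene lists with the mean of the 9 choroid plexus genes; points are list means, ticks the median gene and bars the range over genes, with the number of genes in brackets. Other choroid plexus genes lie at 0.95, the other lists between -0.34 and 0.64.

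The genes most like Ttr across arrays, by the correlation of within-group deviations over 16 arrays among genes with 1 symbol, were Cpm (0.92), a carboxypeptidase gene, Tnfrsf13b (0.91), Gm6958 (0.88), Particl (0.87), Ust (0.85), Krt8 (0.85), Mcm2 (0.84), Npas3 (0.83), Dydc2 (0.82) and Psmc4 (0.81). Krt8, an epithelial keratin gene, is the only one of the 10 on the list of other choroid plexus genes. By the same measure against the mean of the 9 genes, chosen as an anchor after the values were seen, the leading genes were the glucose transporter gene Slc2a12 (0.92), Nmral1 (0.90), Col9a3 (0.90) and Slc4a5 (0.89), a bicarbonate transporter gene of the choroid plexus list. Over 27028 other probe sets the median of these correlations was -0.03 for Ttr and 0.03 for the 9 genes. Of the other probe sets 11.9% had a higher correlation with Ttr than the median of the 9 genes (0.28). Against the mean of the 9 genes, 9.9% lay above the loosest of them, Otx2 (0.45). The genes named here were picked as the highest from this background, with no test. The dimmest of the 10 like Ttr were Dydc2, Krt8 and Tnfrsf13b (mean intensities of 69.3, 80.1 and 92.0), and low values are noisy.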

How the data were processed

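The values are intensities that the authors deposited on a linear scale, 1 per probe set and array, made with MAS5 per the submitters' processing notes, with no version. Every array had a mean of 500 after 2% of its values were trimmed at either end, a scaling done before deposit. MAS5 subtracts a mismatch signal, which makes low values noisy. The number of arrays limits the precision, and nothing says the pools of a group came from separate litters.

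The 64 control probe sets were left out, log2(intensity + 10) was taken, and probe sets above the overall median (99.1) on at least 2 arrays were kept (27044). All arrays entered 1 limma fit by group (limma 3.58.1, R 4.3.3, data.table version 1.17.8; lmFit and eBayes, two-sided, 10 residual and 3.44 prior degrees of freedom), adjusted by Benjamini-Hochberg over all probe sets kept. Deviations from group means were correlated and tested exactly within groups (Python 3.11.15, numpy 2.4.6, pandas 2.3.3). Of all probe sets, 34945 have 1 gene symbol, 932 several and 9160 none. Positions and promoters are from RefSeq (GRCm38.p6). The scripts were tested on simulated data. The members, lists and tests were chosen with earlier results of these data known. The named genes are all member probe sets, the 2 brightest of each other list and up to 4 of each list called in a transgene comparison, by adjusted p, and the 10 genes most like Ttr. Plekhg1, Slc2a12, Nmral1, Col9a3 and Slc4a5, and marker genes with values in the control comparisons other than the brightest, were named after their values were seen. Alternatives were other pseudocounts (none and 25), filters, quantile normalization, median centring, only the arrays compared, a trend with robust variances, array weights, 1 probe set per gene, a replicate block, each array left out and other anchors.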

Additional observations from a re-analysis of the deposited data

How the results depend on the processing

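No choroid plexus gene was called in the transgene comparisons and their differences under any of the settings that keep all arrays. With 1 array left out the count at 3 weeks was 0 to 1 (Kcne2, without VP16-CREB replicate 3), and it stayed 0 elsewhere. Whether replicate numbers pair the pools was not settled. Deviations of same-numbered pools correlated from -0.23 to 0.22 at 3 weeks, and those of differently numbered pools from -0.28 to 0.34. At 1 week they had 0.15 and -0.15, mirrored by construction. In the A-CREB cohort they had -0.05 to 0.41 and -0.37 to 0.05, and replicate 1 of both groups there was low in Xist. With a replicate block, 0 choroid plexus genes were called in each transgene comparison; no block fit was possible between controls of different cohorts. Of the control comparisons, the count of 9 was 4 to 8 with 1 array left out and 6 to 9 under the 10 settings that keep all arrays, where Kcne2 missed the threshold in 2 and Aqp1 in 4. The count of 7 was 2 to 7 with 1 array left out and 4 to 9 under those 10 settings, lowest (4) with array weights, for which the cause was not tested, and there Kcne2 passed in 5 and Aqp1 in 3. Otx2 at 3 weeks was at 0.43 with array weights. With 1 array left out the log2 differences ran from -0.81 to 0.35 for Otx2 and -0.76 to 0.0028 for Steap1 at 3 weeks, from -0.39 to 0.20 for Steap1 and -0.46 to 0.053 for Aqp1 at 1 week, and for Ttr from -0.55 to 0.10 against the 1 week controls and -0.63 to 0.027 against the A-CREB controls. The median correlation with Ttr, 0.28, was 0.52 after quantile normalization and 0.08 to 0.45 with 1 array left out, lowest without VP16-CREB replicate 1 at 3 weeks. Chosen after seeing the data, anchors other than Ttr gave 0.85 (mean of the other members without Ttr) and 0.86 (Kcnj13, the tightest gene). The planned mean of all other members gave 0.84. These values restate the correlations among the genes and are descriptions, with no test. Intensities under 10 in the 3 week cohort limit what Kcne2 and Otx2 can show there.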
